A study of Mus musculus with 5 samples.

Results

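The loci of 8 genes of the ETS family of transcription factors, Erg, Ets1, Ets2, Etv6, Elf1, Elf4, Gabpa and Elk3, were examined in open chromatin maps of bone marrow stem and progenitor cells from inv(16) mice. A locus was the annotated mm10 gene body with 50 kb on each side, and every ATAC-seq peak that overlapped it was a member. In all, 565 of 353877 deposited peaks were members, of which 45 and 80 came from Smc3-het replicates 1 and 2, and 122, 148 and 170 from Smc3-wt replicates 1, 2 and 3. Joined where they overlapped between libraries, they gave 285 regions, of 232104 in the genome.

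ETS factors bind DNA through a winged helix-turn-helix domain that reads a GGAA core, and neighbouring bases and partner proteins set which member binds where. Several members act in blood formation: Erg and Etv6 are needed to maintain adult haematopoietic stem cells, Elf4 takes part in the entry of stem cells into the cell cycle, and Ets1 and Elf1 act in lymphoid and other blood cells. ATAC-seq uses a transposase that inserts sequencing adapters into accessible DNA, so a peak marks accessible chromatin and does not show which factor is bound or whether the gene is transcribed.

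The Smc3-het group was 2 libraries with the genotype Mx1-Cre+, inv(16) and Smc3 D/+, which the labels call heterozygous for Smc3, a subunit of the cohesin ring that shapes chromatin loops. The Smc3-wt group was 3 libraries with Mx1-Cre+, inv(16) and both Smc3 alleles. All 5 carried inv(16), named after the inversion in human leukaemia that joins core binding factor beta to a smooth muscle myosin, all carried Mx1-Cre, a recombinase driven by an interferon-responsive promoter that acts in many cell types besides blood cells, and all had received PIPC, a synthetic RNA that switches this promoter on. No library lacked inv(16) or PIPC. The tissue was bone marrow depleted of lineage-positive cells, the ages of the mice were not given in the sources used here, and the labels do not say whether each library was a separate mouse, so p-values measure only how much these libraries vary, a spread that may be technical.

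Peak lists were far shorter in Smc3-het, with 26885 and 36467 peaks on the main chromosomes in replicates 1 and 2, against 65880, 102822 and 121224 in Smc3-wt replicates 1, 2 and 3. Peak numbers are therefore given in lists of equal size, made by keeping in every library the 26885 peaks with the highest −log10 p, with full lists beside them. Summit height is given as pileup, the number of fragments stacked at the summit, over the background coverage of the library, which came to 3.59 and 2.92 fragments a base in Smc3-het, against 2.74, 1.93 and 3.02 in Smc3-wt. At the 14625 regions called in 5 of 5 full lists its median was 10.3 and 12.7 times background in Smc3-het, against 21.5, 22.8 and 29.1 times background in Smc3-wt. Differences in height were hence taken on a log2 scale after each library was centred on its median region. The spread of the log2 values over those regions was also narrower in Smc3-het, with an SD of 0.830 and 0.913 against 1.08, 1.02 and 1.09 in Smc3-wt, and its part in the results was not tested. Depth as mapped fragments was not used here. Of 7 stem and progenitor genes, 6 and 5 had a peak within 1 kb of a gene end in the equal-size lists of Smc3-het, against 6, 5 and 4 in those of Smc3-wt. In full lists these were 6 and 5 in Smc3-het, against 6, 7 and 7 in Smc3-wt, and the marker counts that follow are also from full lists. Of 3 T cell genes, 0 and 0 had one in Smc3-het, against 0, 0 and 1 in Smc3-wt, and of 3 B cell genes, 0 and 1 in Smc3-het, against 0, 2 and 1 in Smc3-wt. Of 2 granulocyte genes, 0 and 1 had one in Smc3-het, against 1, 1 and 0 in Smc3-wt, and the macrophage gene Adgre1 had one in Smc3-wt replicate 1 alone.

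The promoters that carry most of what follows are printed from RefSeq, 300 bases each, 250 before the annotated start and 50 from it on, 5′ to 3′ on the strand of the gene, with the ETS core GGAA and its reverse complement TTCC in capitals. Gabpa (chr16:84834874-84835173, plus strand, GRCm38.p6) lies under the tallest peak of the 8 loci in the 3 Smc3-wt libraries. Etv6 (chr6:134035450-134035749, plus strand) lies in the tallest peak of its locus in every library but Smc3-het replicate 1. The upstream start of Elf4 (chrX:48463083-48463382, minus strand) has the most cores of the set. The most downstream start of Erg (chr16:95459299-95459598, minus strand) was not covered by a peak in any library.
Gabpa: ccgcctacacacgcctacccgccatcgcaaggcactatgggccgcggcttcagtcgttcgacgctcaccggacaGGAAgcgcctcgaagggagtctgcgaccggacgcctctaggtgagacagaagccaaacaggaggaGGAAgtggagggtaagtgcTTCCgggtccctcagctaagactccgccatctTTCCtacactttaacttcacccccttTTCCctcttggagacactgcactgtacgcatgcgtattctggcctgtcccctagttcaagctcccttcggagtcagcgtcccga
Etv6: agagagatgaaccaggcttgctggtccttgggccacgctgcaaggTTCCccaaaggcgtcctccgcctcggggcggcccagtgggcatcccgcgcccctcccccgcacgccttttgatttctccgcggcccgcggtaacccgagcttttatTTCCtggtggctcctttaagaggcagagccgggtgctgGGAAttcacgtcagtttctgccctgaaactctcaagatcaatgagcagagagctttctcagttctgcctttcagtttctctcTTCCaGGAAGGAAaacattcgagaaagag
Elf4 upstream start: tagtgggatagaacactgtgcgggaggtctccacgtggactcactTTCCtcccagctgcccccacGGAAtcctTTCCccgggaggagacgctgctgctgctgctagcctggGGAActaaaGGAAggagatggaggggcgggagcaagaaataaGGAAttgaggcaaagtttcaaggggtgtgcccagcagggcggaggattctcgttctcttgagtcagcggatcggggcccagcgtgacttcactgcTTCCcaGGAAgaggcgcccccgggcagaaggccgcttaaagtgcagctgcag
Erg downstream start: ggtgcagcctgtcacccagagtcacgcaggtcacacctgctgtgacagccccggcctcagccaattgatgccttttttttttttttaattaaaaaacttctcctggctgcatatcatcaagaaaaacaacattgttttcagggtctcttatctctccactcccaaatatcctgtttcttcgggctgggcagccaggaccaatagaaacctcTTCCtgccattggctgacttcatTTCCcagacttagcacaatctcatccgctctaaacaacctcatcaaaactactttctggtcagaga

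The promoter table held 11 starts for 7 of the 8 members. GGAA on either strand was present in 11 of 11, with a median of 2 copies, against 96.0% of all 32851 promoters, with a median of 3. The upstream Elf4 promoter had 8 copies, a number that 3.72% of promoters reach or pass, Etv6 had 6, Gabpa had 5 and the Erg promoter shown had 2. GATA, the core read by GATA factors, stood on either strand in 4 of 11 member promoters against 57.9% of all, and the Erg promoter shown had 3 copies. TGTGG, part of the site of the core binding factor, stood in 2 of 11 against 55.9% of all. TGTGG and its complement CCACA can share bases with GGAA and TTCC, and such copies were counted for both. These are letter matches in a fixed window and not binding sites.

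In equal-size lists the 8 loci together held 45 and 64 peaks in Smc3-het, 54.5 ± 13.4 (SD, n = 2), and 61, 49 and 61 peaks in Smc3-wt, 57 ± 6.93 (SD, n = 3). The groups overlapped, and the difference of −2.5 peaks was smaller than the spread within either genotype. By locus, 4 genes averaged more peaks in Smc3-het, against 4 fewer, and no locus had counts that separated the genotypes in either direction. Over 19301 genes, 7.5% separated with more peaks in Smc3-het, against 5.79% with more in Smc3-wt. Two-sided exact permutation tests of single loci gave p between 0.6 and 1, in a design whose 10 splits of 2 against 3 libraries cannot go below 0.2.

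The full lists looked different, with 6 of 8 loci lower in Smc3-het without overlap, all but Ets1 and Gabpa. That share has to be read against 61.1% of 21452 genes that did the same, since the Smc3-wt lists were longer throughout. More in Smc3-het without overlap were 0 members, against 0.0466% of genes.

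**Figure D1:**
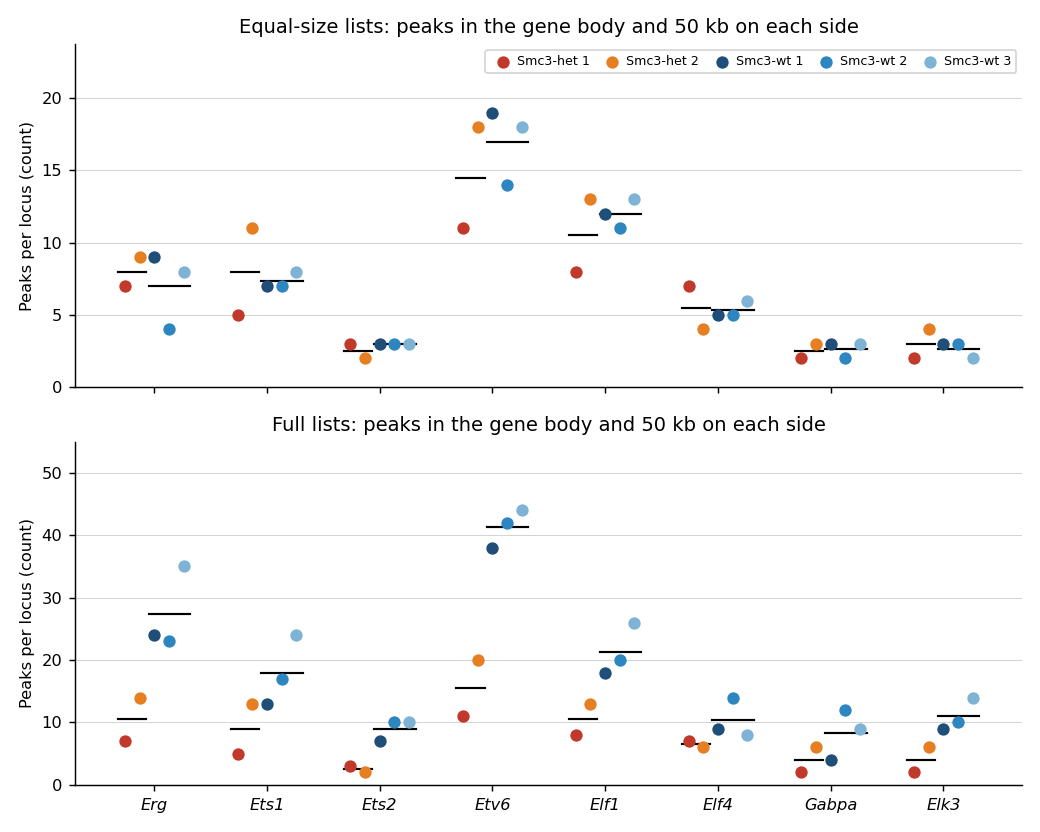
Number of ATAC-seq peaks (vertical axis, count) at each ETS locus (horizontal axis), in equal-size lists above and full lists below. Each point is a library, Smc3-het left of Smc3-wt, and bars are group means. In equal-size lists the genotypes overlap at all 8 loci, and in full lists Etv6 has 11 and 20 peaks in Smc3-het against 38, 42 and 44 in Smc3-wt.

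Erg, a regulator of stem cell self-renewal and a relative of Fli1, had 7 and 9 peaks in equal-size lists in Smc3-het, against 9, 4 and 8 in Smc3-wt. Its full lists held 7 and 14 peaks in Smc3-het, against 24, 23 and 35 in Smc3-wt. The values in equal-size lists overlapped, and Smc3-wt replicate 2 was the lowest of the 5. Erg lies on the minus strand of chromosome 16 (95359169 to 95586600), and RefSeq gives 3 starts, at 95586593, 95530365 and 95459348.

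None of the 3 Erg starts was covered by a peak in any of the 5 full lists. Over all 32851 annotated starts, 26.3% were covered in 5 of 5 and 18473 were covered in no full list, so an uncovered start was common. A small region with its summit 592 bp downstream of the start whose promoter is printed above (chr16:95458673-95459171) was called in the 3 Smc3-wt lists at 9.5, 11.9 and 11.2 times background and in neither Smc3-het list. Full lists held 3 Erg regions within 1 kb of an annotated start, this one among them. In equal-size lists the only such region (chr16:95585355-95585841) was called in Smc3-het replicate 2 alone, at 4.79 times background.

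Accessible chromatin at Erg lay instead in 3 regions inside the gene that were called in 5 of 5 libraries, 98.6, 146.8 and 201.0 kb downstream of the first start, with gaps of 48.2 and 54.2 kb between summits. The region at 146.8 kb (chr16:95438761-95441721) was 2961 bp wide and reached 11.7 and 18.8 times background in Smc3-het, against 37.9, 26.5 and 54.6 times background in Smc3-wt. The region at 98.6 kb (chr16:95486964-95488715) reached 7.79 and 12.7 in Smc3-het, against 36.1, 15.6 and 36.0 in Smc3-wt. The region at 201.0 kb (chr16:95385229-95386227) reached 5.85 and 6.50 in Smc3-het, against 5.10, 11.9 and 10.2 in Smc3-wt. Once each library was centred on its median region, the genotypes overlapped at all 3 regions. The centred log2 difference, Smc3-het minus Smc3-wt, was −0.37 ± 0.356 (SE) at 98.6 kb, −0.27 ± 0.292 at 146.8 kb and 0.62 ± 0.326 at 201.0 kb, with limma adjusted p of 0.572, 0.622 and 0.297. The 146.8 kb region ranked above 71.6% of all regions called in 5 of 5 libraries and the 201.0 kb region above 4.79%, so the Erg regions ranged from strong to among the weakest.

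Another 3 Erg regions were called in 4 of 5 lists, and Smc3-het replicate 1 lacked each of them. The tallest of these (chr16:95434276-95435227) stood at 9.58 times background in Smc3-het replicate 2 and at 17.9, 9.87 and 20.5 in Smc3-wt. Of the 58 Erg regions in all, 39 were called in 1 library alone and 5 in all 3 Smc3-wt libraries without either Smc3-het library. Over all regions of the full lists these shares were 78.3% and 2.44%.

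**Figure D2:**
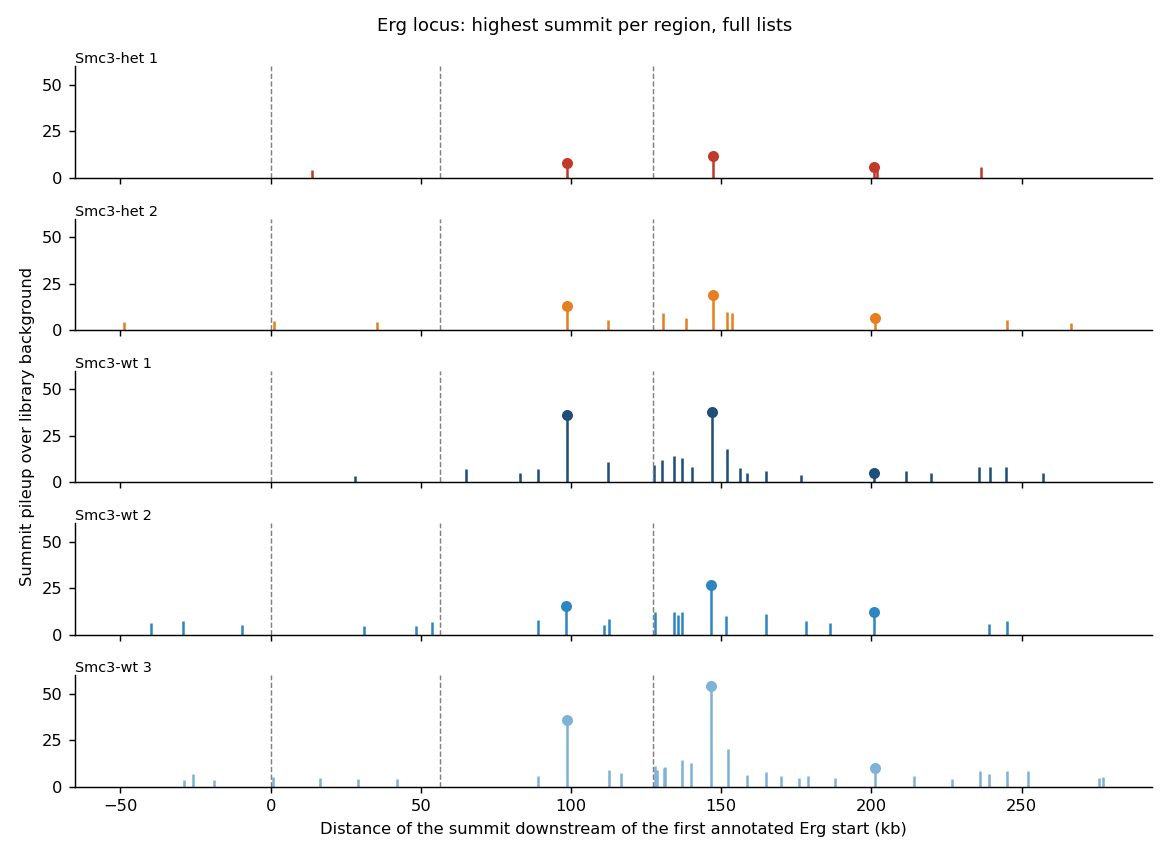
Highest summit of each region along the Erg locus, 1 row per library with Smc3-het above Smc3-wt, as pileup over library background (vertical axis, fold) by distance downstream of the first annotated start (horizontal axis, kb). Dashed lines are the 3 annotated starts and dots the 3 regions called in 5 of 5 libraries. All 3 dots stand away from the dashed lines in every library.

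Etv6, a repressor that stem cells need in adult marrow and that is fused to RUNX1 in childhood leukaemia, had the most peaks of the 8 loci. Equal-size lists held 11 and 18 in Smc3-het, against 19, 14 and 18 in Smc3-wt. The groups overlapped, and Smc3-het replicate 1 was the lowest. Its start was covered in 5 of 5 lists by a region (chr6:134034605-134036609) that reached 12.2 and 24.6 times background in Smc3-het, against 43.4, 46.7 and 46.6 in Smc3-wt. Relative to the start, summits lay at −593 and −171 bp in Smc3-het, against −167, −510 and −475 bp in Smc3-wt, and those at −171 and −167 bp fell within the promoter printed above. The centred log2 difference was −0.30 ± 0.289 (SE), with a limma adjusted p of 0.567.

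A further 6 Etv6 regions were called in 5 of 5 libraries, 1 of them upstream of the gene and 5 inside it. At 184.8 kb downstream of the start (chr6:134219616-134221130) pileup was 12.5 and 15.7 times background in Smc3-het, against 13.9, 23.9 and 19.2 in Smc3-wt. Relative to the median region of each library these values were higher in both Smc3-het libraries than in any Smc3-wt library, by 0.69 ± 0.286 (SE, log2), and also after quantile normalization, which gives all libraries the same distribution, by 0.68. The limma p of 0.0332 became 0.205 after adjustment over 14625 regions, and 0.25 after quantile normalization. At 14.7 kb upstream (chr6:134020550-134021495) pileup was 6.96 and 15.1 times background in Smc3-het, against 9.48, 14.0 and 16.2 in Smc3-wt. The centred difference was 0.75 ± 0.303, with an adjusted p of 0.194, and the groups overlapped after quantile normalization. The remaining 4, at 29.6, 79.9, 106.1 and 154.3 kb, had adjusted p between 0.253 and 0.872.

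Etv6 also had 2 of the 3 member regions that separated the genotypes in equal-size lists. One (chr6:134117174-134118031, 82.1 kb downstream of the start) reached 14.9, 15.6 and 21.8 times background in the 3 Smc3-wt libraries, and the other (chr6:134130570-134131520, 95.2 kb) reached 12.8, 13.5 and 22.8. Neither was called in either Smc3-het list, full or equal-size. The full lists added 6 weaker Etv6 regions of this kind.

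**Figure D3:**
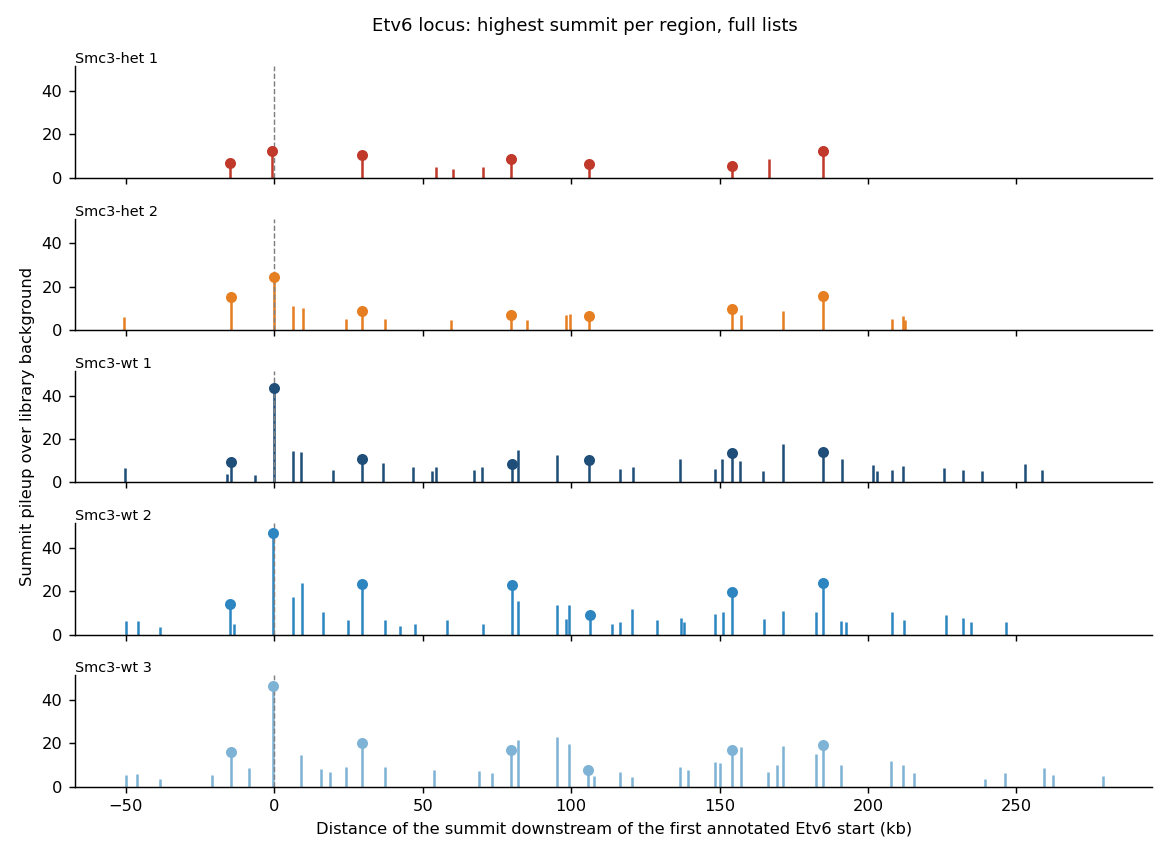
Highest summit of each region along the Etv6 locus, 1 row per library with Smc3-het above Smc3-wt, as pileup over library background (vertical axis, fold) by distance downstream of the annotated start (horizontal axis, kb). The dashed line is the start and dots are the 7 regions called in 5 of 5 libraries. The start region is the tallest in the 3 Smc3-wt libraries and in Smc3-het replicate 2, and in Smc3-het replicate 1 the 184.8 kb region is about as tall, 12.5 against 12.2 times background.

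Elf4, also called MEF, which regulates stem cell quiescence and natural killer cells, lies on the minus strand of chromosome X. Equal-size lists held 7 and 4 peaks in Smc3-het, against 5, 5 and 6 in Smc3-wt, and the groups overlapped. Full lists held 7 and 6 in Smc3-het, against 9, 14 and 8 in Smc3-wt. Both annotated starts were covered in 5 of 5 libraries. At the upstream start, whose promoter with 8 GGAA cores is printed above, pileup was 4.73 and 7.53 times background in Smc3-het, against 6.93, 21.3 and 14.2 in Smc3-wt. At the downstream start (chrX:48452361-48455128) it was 9.19 and 8.21 in Smc3-het, against 14.6, 16.1 and 21.2 in Smc3-wt. The upstream start was thus the lower of the pair in every library but Smc3-wt replicate 2. Centred differences were −0.01 ± 0.385 (SE, log2) at the upstream and 0.11 ± 0.261 at the downstream start, with limma adjusted p of 0.987 and 0.831. The other 3 regions called in 5 of 5 included the start of Aifm1, a mitochondrial flavoprotein gene, and had centred differences from 0.39 to 0.55 with adjusted p between 0.294 and 0.446. Over all 5 regions the mean centred log2 signal of the locus was −0.40 and −0.48 in Smc3-het, against −0.89, −0.60 and −0.79 in Smc3-wt, without overlap and with an exact permutation p of 0.2. The median centred signal of all X-linked regions was −0.26 and −0.04 in Smc3-het, against 0.09, 0.13 and −0.04 in Smc3-wt. Peaks at Y-linked gene ends were found in Smc3-wt replicates 1 and 3 only, at 4 of 4 genes in each. The part of the sex of the mice in the Elf4 difference, or in those at the other loci, was not tested.

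Ets1, needed for the development of T, B and natural killer cells, had 5 and 11 peaks in equal-size lists in Smc3-het, against 7, 7 and 8 in Smc3-wt. The Smc3-het libraries were the lowest and the highest of the 5. Full lists held 5 and 13 peaks in Smc3-het, against 13, 17 and 24 in Smc3-wt. Its 3 regions called in 5 of 5 libraries all lay inside the gene on chromosome 9, at 36.4, 59.8 and 70.0 kb above the lower end of the gene span. The tallest, at 59.8 kb (chr9:32695428-32697013), reached 17.3 and 14.4 times background in Smc3-het, against 41.5, 39.5 and 45.0 in Smc3-wt. The centred difference was −0.33 ± 0.274 (SE, log2), with a limma adjusted p of 0.516, and the genotypes overlapped. At 36.4 kb pileup was 4.45 and 11.3 times background in Smc3-het, against 16.0, 17.1 and 22.8 in Smc3-wt (adjusted p 0.618). At 70.0 kb it was 8.07 and 6.16 in Smc3-het, against 9.48, 16.6 and 9.26 in Smc3-wt (adjusted p 0.539), and the groups overlapped at both after centring. Ets1 neighbours Fli1 at a distance of 92.8 kb, so the outer 7.19 kb of their windows coincide. That stretch held 2 of the 33 Ets1 regions, and 0 of the regions called in 5 of 5.

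Elf1, an activator of genes in blood and endothelial cells, had 8 and 13 peaks in equal-size lists in Smc3-het, against 12, 11 and 13 in Smc3-wt. Full lists held 8 and 13 in Smc3-het, against 18, 20 and 26 in Smc3-wt. Its upstream start was covered in 5 of 5 libraries (chr14:79480610-79482368), a region it shares with the start of the splicing factor gene Wbp4. Pileup there was 21.2 and 24.0 times background in Smc3-het, against 39.7, 45.2 and 62.5 in Smc3-wt. The centred difference was −0.01 ± 0.25 (SE, log2), the smallest of the 28 regions in size, with a limma adjusted p of 0.983. The second Elf1 start, at 79515674, was covered in every library but Smc3-het replicate 1. At 29.3 kb upstream of the gene (chr14:79451686-79452436) the region reached 8.91 and 17.5 times background in Smc3-het, against 34.3, 35.3 and 45.0 in Smc3-wt. It was lower in Smc3-het without overlap on both scalings, by 0.52 ± 0.276 on the centred log2 scale, with an adjusted p of 0.302. The tallest region of the locus, 106.3 kb downstream (chr14:79586875-79588196), was at the start of the neighbour Sugt1, which encodes a co-chaperone. Pileup there was 29.0 and 42.8 times background in Smc3-het, against 57.6, 62.3 and 84.0 in Smc3-wt, with a limma adjusted p of 0.75.

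The third region that separated the genotypes in equal-size lists lay inside Elf1, 45.2 kb downstream of its first start (chr14:79526000-79526634). It reached 23.3, 17.1 and 36.4 times background in the 3 Smc3-wt libraries, close to the median region of those libraries. It was in neither Smc3-het list, full or equal-size. The lowest peaks of the full Smc3-het lists stood at 3.34 and 3.42 times background, and whether signal lay under the calling threshold was not tested.

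Ets2, a target of Ras and MAP kinase signalling, and Elk3, a ternary complex factor that works with serum response factor, had the fewest peaks together with Gabpa. Ets2 had 3 and 2 peaks in equal-size lists in Smc3-het, against 3 in each Smc3-wt library, and 3 and 2 in Smc3-het against 7, 10 and 10 in Smc3-wt in full lists. Its start region (chr16:95701692-95703049) reached 16.7 and 17.5 times background in Smc3-het, against 34.3, 27.0 and 31.4 in Smc3-wt, with a centred difference of 0.24 ± 0.273 (SE, log2) and a limma adjusted p of 0.639. A region 26.6 kb downstream of the start reached 12.2 and 15.7 in Smc3-het, against 19.0, 31.7 and 21.2 in Smc3-wt, with an adjusted p of 0.544. Averaged over both, Ets2 signal was higher in Smc3-het without overlap, by 0.29 on the centred log2 scale (exact permutation p = 0.2). Ets2 and Erg are neighbours on chromosome 16, and their gene bodies are 115.8 kb apart, so the windows do not meet.

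Elk3 had 2 and 4 peaks in Smc3-het, against 3, 3 and 2 in Smc3-wt in equal-size lists, and in full lists 2 and 6 in Smc3-het, against 9, 10 and 14 in Smc3-wt. Its start base was covered by a peak in Smc3-wt replicates 2 and 3 alone in the full lists. In equal-size lists the region over it (chr10:93309829-93311244) was called in Smc3-het replicate 2 and in Smc3-wt replicates 1 and 2. Pileup there was 5.48 times background in Smc3-het replicate 2, against 9.84 and 10.4 in the Smc3-wt pair. The peaks of Smc3-het replicate 2 and Smc3-wt replicate 1 lay beside the start base without covering it. The only region called in 5 of 5 libraries was inside the gene, 49.5 kb downstream of the start (chr10:93261205-93262886), at 5.57 and 7.19 times background in Smc3-het, against 11.3, 10.4 and 12.6 in Smc3-wt. The centred difference of 0.24 ± 0.252 (SE, log2) became −0.06 after quantile normalization, so its direction depended on the scaling.

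Gabpa, the DNA-binding subunit of GABP, an activator of nuclear genes for mitochondrial and translation proteins, had 2 and 3 peaks in equal-size lists in Smc3-het, against 3, 2 and 3 in Smc3-wt. Full lists held 2 and 6 in Smc3-het, against 4, 12 and 9 in Smc3-wt, and the groups overlapped in both. Its start region (chr16:84834354-84836296) was the tallest of the 28 in the 3 Smc3-wt libraries, while in both Smc3-het libraries the Elf1 region at the Sugt1 start was taller. By its mean over the 5 libraries it stood above 97.4% of all regions called in 5 of 5. Pileup was 23.4 and 37.0 times background in Smc3-het, against 94.0, 99.2 and 125 in Smc3-wt. Gabpa shares this region with the divergent start of Atp5j, a subunit gene of the mitochondrial ATP synthase, and accessibility of the pair cannot be told apart. Relative to the Gabpa start, summits stood at 89 and −20 bp in Smc3-het, against 19, −76 and 19 bp in Smc3-wt, and all but the one at 89 bp lay within the printed promoter.

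Relative to the median region the Gabpa start averaged 1.36 ± 0.256 in Smc3-het (SD, n = 2) and 2.12 ± 0.013 in Smc3-wt (SD, n = 3) on the log2 scale. The difference of −0.75 ± 0.255 (SE) had the lowest unadjusted p of the 28 regions, 0.0122, and its limma adjusted p was 0.149. Quantile normalization brought it to −0.43 with an adjusted p of 0.376, and a variance trend in limma brought the adjusted p to 0.0186. With that trend limma called 1 of the 28 member regions, this one. Of all 14625 regions it called 660 lower and 240 higher in Smc3-het, against 12 and 68 in the main setting. The second Gabpa region, 20.5 kb upstream (chr16:84813651-84815135), reached 6.68 and 5.82 times background in Smc3-het, against 19.0, 16.6 and 16.9 in Smc3-wt, with a centred difference of −0.40 ± 0.286 and an adjusted p of 0.441. The mean over both was lower in Smc3-het without overlap, by 0.57 on the log2 scale (exact permutation p = 0.2).

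Across the 28 member regions called in 5 of 5 libraries, limma called 0 in either direction at an adjusted p under 0.05, and 3 of the 28 had an unadjusted p under it, against 20.9% of all 14625 regions. Among all 14625 such regions 0.465% were called higher and 0.0821% lower in Smc3-het, a background so low that 0 of 28 shows nothing particular to the members. Groups did not overlap at 6 member regions with higher and 2 with lower centred signal in Smc3-het (21.4% and 7.14%), against 18.5% and 21.1% of all regions. After quantile normalization these were 2 and 3, against 17.6% in each direction, and limma then called 0 of the 28, against 0.15% of all regions higher and 0.0342% lower.

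**Figure D4:**
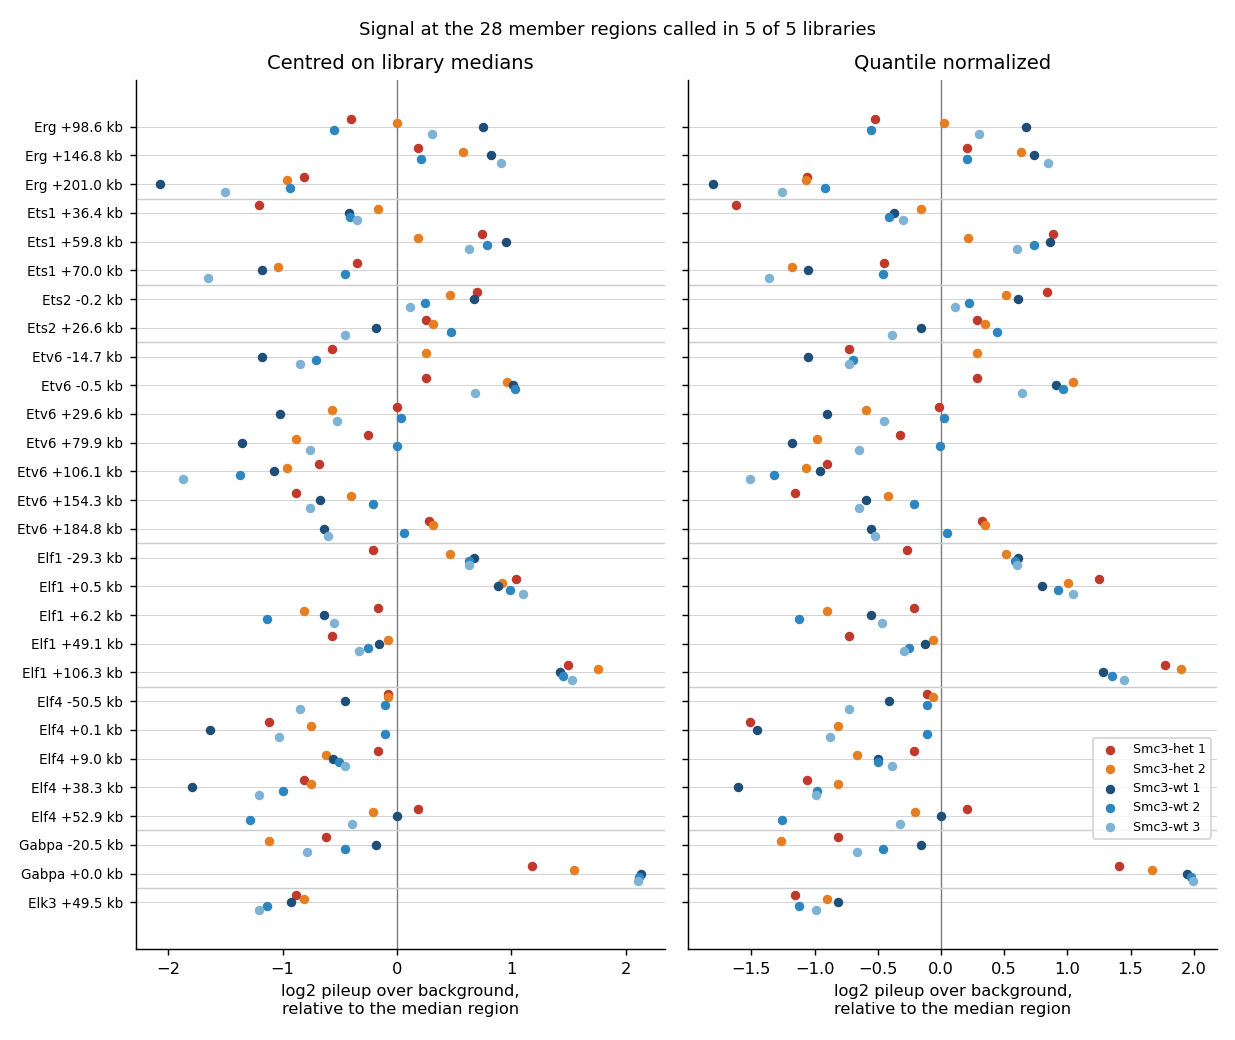
Summit signal of the 28 member regions called in 5 of 5 libraries (rows, by gene and distance from its first start, or for Ets1 from the lower end of the gene span), as log2 pileup over background relative to the median region (horizontal axis). Points are libraries, centred on library medians on the left and quantile normalized on the right. The Gabpa start is the farthest right in the 3 Smc3-wt libraries, and the Elf1 106.3 kb region in both Smc3-het libraries, with Gabpa at 1.18 and 1.55 in Smc3-het, against 2.13, 2.12 and 2.10 in Smc3-wt after centring.

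The centred difference was positive at 16 member regions and negative at 12, with a median of 0.15 against 0.01 over all regions. Its sign went with the strength of the region, taken as the mean of the same 5 centred values. As 3 of the 5 are Smc3-wt values, a region high in Smc3-wt counts as stronger. How much this adds to the dependence was not tested. Of 10 member regions with a mean above 0, 3 were higher in Smc3-het, against 33.5% of all such strong regions. Of the 18 others, called weak here, 13 were, against 67.4% of all weak regions. The same dependence on strength was thus present across the genome, and it goes with the narrower spread of log2 values in Smc3-het given above. All these regions had to be called in every library. The lowest called peaks stood at 3.34 and 3.42 times background in Smc3-het, against 3.28, 3.63 and 2.98 in Smc3-wt. Medians of the shared regions were 10.3 and 12.7 in Smc3-het, against 21.5, 22.8 and 29.1 in Smc3-wt. The threshold thus lay nearer the median in Smc3-het, and its part in the dependence was not tested. Whether ETS loci differ from other loci in this was not tested.

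**Figure D5:**
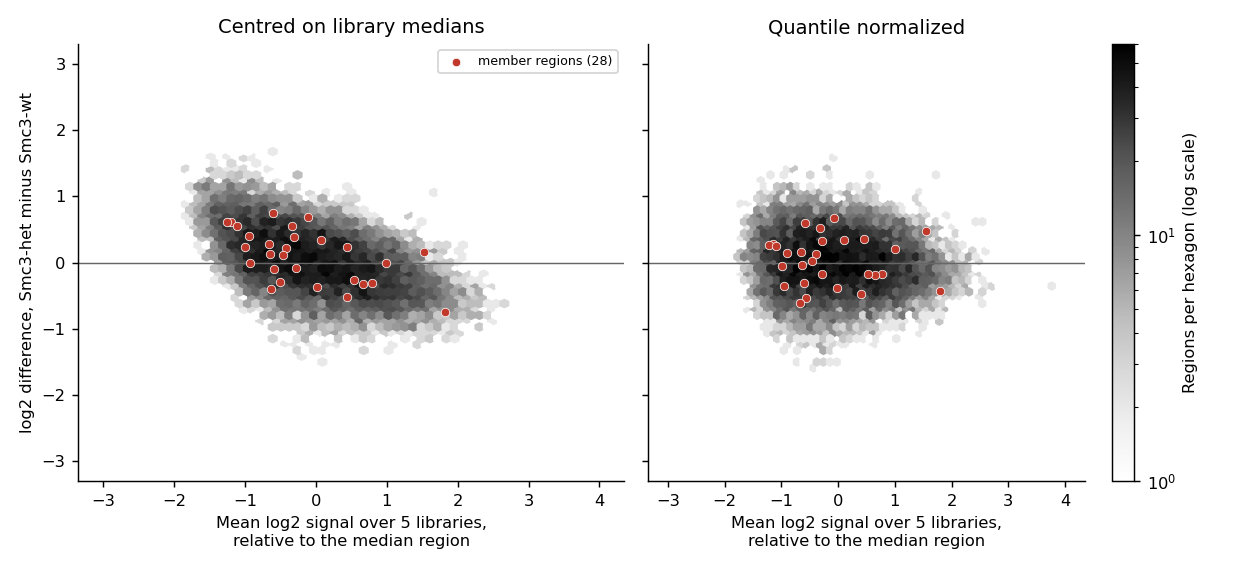
Log2 difference between the genotypes (vertical axis, Smc3-het minus Smc3-wt) by mean signal of the region (horizontal axis, log2 relative to the median region) for all 14625 regions called in 5 of 5 libraries (grey, darker where denser) and the 28 member regions (red). After centring on library medians, on the left, strong regions lie mostly below 0 and weak ones above it, and member regions lie within the grey cloud on both scalings.

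By locus, mean centred signal separated the genotypes for Ets2, Elf4 and Elk3, higher in Smc3-het, and for Gabpa, lower in Smc3-het. Over 15599 genes 25.6% separated upward and 22.8% downward. Quantile normalization changed the sign for Elk3 and Elf1. For Erg the difference was −0.01, with mean log2 values of −0.35 and −0.13 in Smc3-het, against −0.17, −0.43 and −0.10 in Smc3-wt. For Etv6 it was 0.29, and for Ets1 −0.07, and the groups overlapped at each of these loci.

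Regions called in every library of a genotype and none of the other numbered 0 for Smc3-het and 3 for Smc3-wt among 114 member regions of the equal-size lists, against 1.08% and 1.92% of all regions. In full lists they numbered 0 and 17 of 285, against 0.0745% and 2.44%. Of the 17, 8 were at Etv6, 5 at Erg, 2 at Elf1 and 1 each at Ets1 and Gabpa. Of the 19 member regions found in 4 of 5 full lists, 18 lacked Smc3-het replicate 1 and 1 lacked Smc3-het replicate 2. Over all 6556 such regions 56.4% lacked Smc3-het replicate 1, which had the shortest list.

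Sharing between libraries was 28 of 285 member regions in full lists (9.82%), against 6.30% of all regions, and 21 of 114 in equal-size lists (18.4%), against 21.7%. Of the 28, 8 lay within 1 kb of an annotated start (28.6%), against 55.4% of all regions called in 5 of 5, and 19 lay inside the gene bodies. Summit positions in the 28 spanned a median of 308.5 bp over the 5 libraries, against 214 bp, and 2 of the 28 (7.14%) stayed within 100 bp, against 14.7%.

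Among the other 18 ETS genes, equal-size lists held 87 and 75 peaks in Smc3-het, against 81, 67 and 77 in Smc3-wt. Etv2, which drives early blood and endothelial fate, was the single gene of the 18 with counts that did not overlap, 8 and 6 in Smc3-het, against 5 in each Smc3-wt library. Over 19301 genes 7.5% separated in this direction and 5.79% in the other, so 1 of 18 is nothing particular to these genes. In full lists the Etv2 groups overlapped, with 8 and 6 in Smc3-het, against 6, 7 and 11 in Smc3-wt. Fli1, the gene named in the series title, had 7 and 10 peaks in Smc3-het, against 12, 3 and 10 in Smc3-wt, a pattern with the same low library as Erg. Spi1, which encodes the myeloid factor PU.1, had 6 and 6 in Smc3-het, against 6, 5 and 4 in Smc3-wt. At 47 regions of these genes called in 5 of 5 libraries, 0 passed limma's adjusted threshold in either direction, 9 of the 47 had an unadjusted p under 0.05, against 20.9% of all regions called in 5 of 5, and the lowest adjusted p was 0.0545. The centred difference was positive at 37 and also at 37 after quantile normalization, with medians of 0.26 and 0.20. Over all regions 50.9% were positive, with a median of 0.01, and 49.6% after quantile normalization. At Fli1 the mean over 3 regions was −0.37 and −0.19 in Smc3-het, against −0.83, −0.88 and −0.55 in Smc3-wt, a difference of 0.48 (0.34 after quantile normalization) with an exact permutation p of 0.2. Erg, the closest relative of Fli1, had a difference of −0.01 in the same measure, and whether the genes differ was not tested.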

How the data were processed

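Per the submitters' processing notes, the tools behind the deposited lists were Bowtie2 and MACS2 and the build was mm10; versions and duplicate handling were not given in the sources used here. Each library has its own list, which gives for each peak its interval, a summit coverage signal (pileup) and, per the file headers, a fold enrichment, the ratio of pileup to local background. The headers of 2 more deposited columns were lost, and by order and values they are the −log10 p and −log10 q. These scores are the authors' own.

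For each list, background coverage was taken as the commonest value of pileup + 1 divided by fold, minus 1, since MACS2 adds a pseudocount of 1 to both. Peaks overlapping by 1 bp formed regions, and the highest summit per library was used. Strength was tested with limma 3.58.1 in R 4.3.3 (Benjamini-Hochberg over 14625 regions, called at 0.05), single values with two-sided exact permutation tests over libraries. The limma step was tested on simulated data. Gene spans and promoters came from RefSeq (GRCm38.p6, the build of mm10), which gave no exons here, so exons and introns were not told apart. Groups and replicate numbers came from sample titles.

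Members and lists were chosen with earlier results of these data known. The rule for naming took all 8 members, their 4 strongest regions called in 5 of 5 libraries and every region that separated the genotypes. Other regions named, such as those in 4 of 5 lists, the Etv6 region 14.7 kb upstream and the Erg region near the downstream start, were chosen after their values were seen. Alternatives covered list length, thresholds, locus width, scaling, variance model and left-out libraries. A further list of marker genes is not reported here.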

Additional observations from a re-analysis of the deposited data

How the results depend on the processing

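Differences in peak number changed sign under at least 1 alternative at 7 of the 8 loci, all but Ets2, and for Gabpa under 1 of 14. The difference in peaks, Smc3-het minus Smc3-wt, was 1 for Erg, 0.667 for Ets1, −0.5 for Ets2, −2.5 for Etv6, −1.5 for Elf1, 0.167 for Elf4, −0.167 for Gabpa and 0.333 for Elk3 in equal-size lists. In full lists it was −16.8 for Erg, −9 for Ets1, −3.83 for Elf4 and −7 for Elk3, at a −log10 q of at least 5 it was −10.8, −7.17, −3.67 and −3.5 for the same genes, and at a −log10 q of at least 10 it was −4.5, −5, −2.83 and −2.67. These settings keep the unequal list lengths. In equal-size lists of 13442 peaks it was −0.833 for Ets1, 0.667 for Etv6 and −0.667 for Elf4. Ranking by fold gave 3.17 for Etv6 and 1 for Elf1, and loci extended by 100 kb gave 0.333 for Etv6 and −0.333 for Elk3. Leaving out each library in turn gave −0.5 to 2 for Erg, −2.33 to 3.67 for Ets1, −6 to 1 for Etv6, −4 to 1 for Elf1, −1.33 to 1.67 for Elf4, −0.667 to 0.333 for Gabpa and −0.667 to 1.33 for Elk3. Sign changed without Smc3-wt replicate 2 for Erg, without Smc3-het replicate 2 for Ets1 and Elk3, and without Smc3-het replicate 1 for Etv6, Elf1, Elf4 and Gabpa.

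Member regions called only in Smc3-wt numbered 17 in full lists, 12 and 7 at a −log10 q of at least 5 and 10, and 0 in lists of 13442 peaks and in lists ranked by fold, where 1 region was called only in Smc3-het. Without each library in turn they numbered 3 to 8, with 6 without Smc3-het replicate 2 and 8 without Smc3-wt replicate 2. Those only in Smc3-het numbered 0 to 15, with 15 and 10 without Smc3-het replicates 1 and 2, and 1 without Smc3-wt replicate 1 or 2. Leaving out 1 Smc3-het library makes a call in the other alone enough to count. Apart from the full lists, shares over all regions were not computed for these settings, so the counts cannot be read as particular to the members. A lone Smc3-het library was assumed to vary like Smc3-wt in the limma fits.

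Limma called 0 of 28 member regions with each library left out, with quantile normalization and with background subtracted. It called 1, the Gabpa start, with a variance trend, and 19 without centring, where the median of all regions was −1.08. Called regions of the genome numbered 80 in the main setting, 27 after quantile normalization, 132 among regions of equal-size lists, 900 with a trend, 10598 without centring, 0 with background subtracted and no pseudocount, and 0 to 401 with a library left out. They numbered 0 without Smc3-het replicate 1 or 2 or Smc3-wt replicate 1, 4 without Smc3-wt replicate 3 and 401 without Smc3-wt replicate 2. The planned subtraction with a pseudocount of 1 is the main scale by construction. The version without a pseudocount was chosen after seeing the data.

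All values in this paragraph are differences in mean log2 signal per locus, Smc3-het minus Smc3-wt. Without centring the difference was −0.80 for Ets2 and Etv6, −0.77 for Elf4 and −0.85 for Elk3. Quantile normalization gave 0.038 for Elf1 and −0.055 for Elk3. Loci extended by 20 kb gave 0.088 for Elf1, and by 100 kb 0.041 for Ets1. With a library left out, the range was −0.11 to 0.10 for Erg, −0.18 to 0.032 for Ets1 and −0.098 to 0.032 for Elf1, and the sign changed for Erg without Smc3-het replicate 1, Smc3-wt replicate 1 or Smc3-wt replicate 3, for Ets1 without Smc3-wt replicate 2 and for Elf1 without Smc3-het replicate 1.

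Of single regions, 16 changed sign without centring. Log2 differences were then −0.47 for Erg at 201.0 kb, −0.69 for Ets1 at 70.0 kb, −0.85 and −0.75 for the Ets2 start and 26.6 kb regions, −0.33, −0.86, −0.95, −0.47 and −0.40 for the Etv6 regions at −14.7, 29.6, 79.9, 106.1 and 184.8 kb, −0.80 and −0.93 for Elf1 at 6.2 and 106.3 kb, −0.54, −0.54, −0.97 and −0.70 for Elf4 at 52.9, 38.3, 9.0 and −50.5 kb, and −0.85 for Elk3. Quantile normalization turned the sign of Etv6 at 79.9 kb (−0.043), the Elf1 start (0.20) and Elk3 (−0.055). The Elf1 start was also 0.025 with background subtracted and no pseudocount and 0.036 among regions of equal-size lists, where the upstream Elf4 start was 0.034. With a library left out, sign changes occurred within −0.81 to 0.23 for Ets1 at 36.4 kb, −0.66 to 0.052 for the Etv6 start, −0.059 to 0.51, −0.19 to 0.49 and −0.34 to 0.15 for Etv6 at 29.6, 79.9 and 154.3 kb, −0.071 to 0.048, −0.042 to 0.61 and −0.32 to 0.16 for Elf1 at its start, 6.2 and 49.1 kb, and −0.12 to 0.34 and −0.37 to 0.40 for the downstream and upstream Elf4 starts.

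Correlations of same-numbered deviations from the group means were −0.0637 and −0.0673. The deviations of 2 Smc3-het libraries mirror each other, so these values cannot decide whether replicate numbers pair the libraries. With the replicate number as a block, limma called 224 regions and 0 of the 28, the mean log2 signal difference at Erg was 0.060 and the Elf1 start 0.045. Causes of these changes were not tested unless stated. Depth as mapped fragments was not used here, groups were 2 and 3 libraries, and a region absent from a list may lie just under its threshold.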
